A study of Mus musculus with 15 samples.

Results

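Mouse embryos with a catalytically inactive caspase-8 and embryos with Casp8 knocked out were compared by RNA-seq of the small intestine at E16.5, a late stage of embryonic development. The first group carried the C362A knockin of Casp8 together with a knockout of Mlkl (C362A, 5 libraries), and the second carried knockouts of both Casp8 and Mlkl (knockout, 5 libraries). These 10 libraries of the 15 in the series were chosen by their genotype labels alone. The other 5, with wildtype Casp8 and the Mlkl knockout (wildtype), are used here for the estimate of spread and as a reference level. Every library in the series therefore came from an animal lacking Mlkl, and no group had the gene intact. The labels mark the tissue of all 5 C362A libraries as inflamed and that of the other 10 libraries as normal, so genotype and this mark cannot be told apart. They name no strain, litter or sex, do not say how the alleles were made, and do not say whether a library is 1 animal. The p-values below therefore measure the spread between these samples, which may be partly technical.

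Caspase-8 is the protease that starts apoptosis downstream of death receptors. It is recruited by the adaptor FADD, pairs with the protease-like protein cFLIP (Cflar), and cleaves executioner caspases. It also cleaves RIPK1 and RIPK3, the kinases that otherwise activate the pseudokinase MLKL, whose insertion in the membrane kills the cell by necroptosis. Caspase-8 protein can in addition serve as a platform on which other proteins assemble, a role that does not need its catalytic cysteine. Both groups compared here are designed to lack caspase-8 activity and Mlkl, and they differ by design in whether the inactive protein can be made.

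The position changed in the knockin is shown first, since it is the only designed difference in Casp8 between the C362A and wildtype groups. In the GENCODE transcript Casp8-201 on GRCm38, whose coding sequence has 480 codons, the codon of the C362A position lies in exon 8, on the plus strand of chromosome 1 at positions 58844619 to 58844621. The stretch below is the reference sequence of chr1:58844589-58844651 with that codon in capitals. It is not the sequence of the knockin allele, whose changed bases are not given in the labels.

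Casp8-201, C362A position: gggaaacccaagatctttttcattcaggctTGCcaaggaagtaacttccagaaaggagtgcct

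The codon shown is a cysteine codon, and the substitution to alanine leaves a transcript that counts per gene cannot tell from the wildtype one.

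The libraries held 31896399 to 38532127 counts, and 22295 to 24039 genes had a count in a library. Mitochondrial genes took 1.13% to 1.65% of counts. Y-linked genes were expressed in 2 of the 5 C362A, 4 of the 5 knockout and 4 of the 5 wildtype libraries. Sample ID numbers fell into 2 runs of consecutive numbers, with replicates 2 and 5 of both C362A and knockout in run 1 and replicates 1, 3 and 4 in run 2. Differences were tested with edgeR's quasi-likelihood test on 18370 genes, with p-values adjusted over all of them by the Benjamini-Hochberg method, and a gene was called at an adjusted p under 0.05. Levels are in CPM (counts per 1e6, with TMM scaling), as mean ± SD of 5 libraries. Log2 fold changes are C362A minus knockout.

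Casp8 (chr1:58795233-58847503) matched the labels. Its level in C362A replicates 1 to 5 was 71.2, 64.4, 72.1, 69.1 and 72.8 CPM. In knockout replicates 1 to 5 it was 14.52, 16.54, 13.55, 12.16 and 15.18 CPM. Every C362A library lay far above every knockout library. The C362A mean was 69.9 ± 3.41 CPM and the knockout mean 14.4 ± 1.65 CPM, beside a wildtype mean of 70.1 ± 5.97 CPM. The log2 fold change was 2.28 (SE 0.08, 95% interval 2.10 to 2.46, edgeR adjusted p = 2.61e-11). Casp8 transcripts were thus at the wildtype level in C362A, with a log2 difference from wildtype of -0.00 (adjusted p = 0.987). Counts were made over the whole gene model, so they do not show which exons the remaining knockout reads came from.

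**Figure D1:**
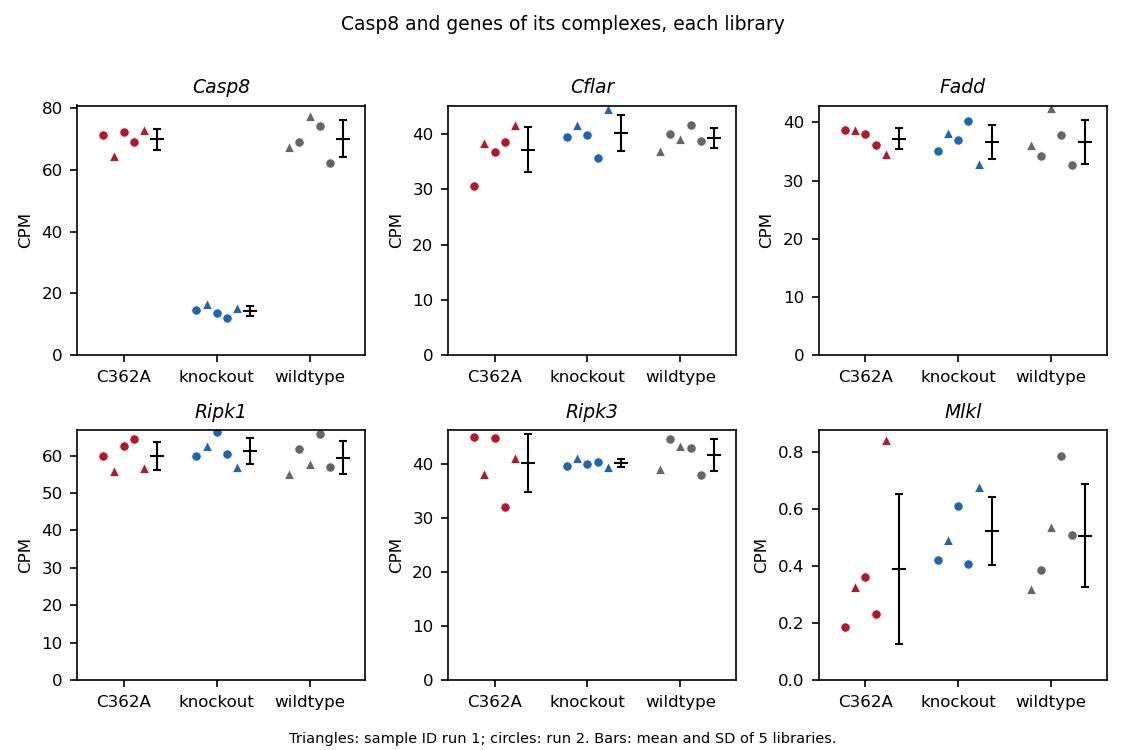
CPM of Casp8 and of 5 genes of its complexes in each library, by genotype, with the mean and SD of 5 libraries as bars and the sample ID run as the symbol. The 5 knockout libraries sit between 12.16 and 16.54 CPM for Casp8 and the other 10 above 60, while the groups overlap for Cflar, Fadd, Ripk1, Ripk3 and Mlkl.

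The genes whose products assemble with caspase-8 were not called, and for most of them the interval of the difference was narrow. Fadd (chr7:144578323-144582441) was at 37.2 ± 1.80 CPM in C362A and 36.6 ± 2.86 CPM in knockout, with a log2 fold change of 0.02 (95% interval -0.14 to 0.19). Ripk1 (chr13:34002225-34035170) was at 59.9 ± 3.68 and 61.2 ± 3.43 CPM (-0.03, interval -0.17 to 0.11). Ripk3 (chr14:55784995-55788857) was at 40.3 ± 5.37 and 40.2 ± 0.693 CPM (0.00, interval -0.17 to 0.18). Cflar, which lies beside Casp8 on chromosome 1, was at 37.2 ± 4.05 and 40.2 ± 3.21 CPM (-0.11, interval -0.28 to 0.06). Differences of 0.5 on the log2 scale lie outside each of these 4 intervals. Mlkl, knocked out in every group, was at 0.389 ± 0.261 CPM in C362A and 0.521 ± 0.119 CPM in knockout, beside a wildtype mean of 0.506 ± 0.179 CPM, and its interval of -1.20 to 0.35 is wide because 6 to 28 reads were counted per library.

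Among the 22 tested genes of a list for death receptors and necroptosis, Casp8 was the only one called, and the list's median log2 fold change was -0.04, beside 0.01 over all genes tested. The death ligand gene Tnfsf10, which encodes TRAIL, had the next smallest p, with 5.86 ± 1.53 CPM in C362A and 8.13 ± 1.02 CPM in knockout, and did not pass (adjusted p = 0.347). The receptor gene Tnfrsf1a was at 151 CPM in both groups, and Fasl and Tnf had too few counts to be tested. Of 21 BCL2 family and caspase genes, none was called by edgeR, 2 had an unadjusted p under 0.05 and the median was -0.02. Those were Mcl1, which encodes a survival protein (198 ± 4.48 against 220 ± 12.6 CPM), and Bmf, which encodes a BH3-only protein (55.6 ± 2.79 against 49.4 ± 4.23 CPM). The executioner caspase gene Casp6 had a log2 fold change of -0.17 and did not pass.

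Across the transcriptome, 2 genes were called in C362A against knockout, Casp8 and Ddit4, or 0.0109% of the genes tested. Both were higher in C362A, and edgeR called 0 genes lower. With an unadjusted p under 0.05, 1193 genes were higher (6.49%) and 1362 lower (7.41%), together 13.9% of the genes tested. The 5 C362A libraries lay wholly above the 5 knockout libraries for 203 genes (1.11%) and wholly below them for 320 (1.74%), together 2.85%. The count of calls rested on 1 library: without C362A replicate 5, 805 genes were called (4.35% of 18510), 329 higher (1.78%) and 476 lower (2.57%). All 805 had the same sign over all 10 libraries, and 2 of them were called there. The 2 fits share every library but that 1, so the shared sign was nearly fixed in advance. The fit without C362A replicate 5 gave the most calls of those with 1 library left out. Apart from Casp8 and Ddit4, the gene list members it called had edgeR adjusted p of 0.0209 to 0.0487. With each library left out in turn, 759 to 2363 genes were higher and 792 to 2743 lower at an unadjusted p under 0.05. Both highest counts came without C362A replicate 5. DESeq2 on the same counts called 19 genes higher (0.116% of 16338) and 12 lower (0.0734%) over all libraries, together 0.19%.

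**Figure D2:**
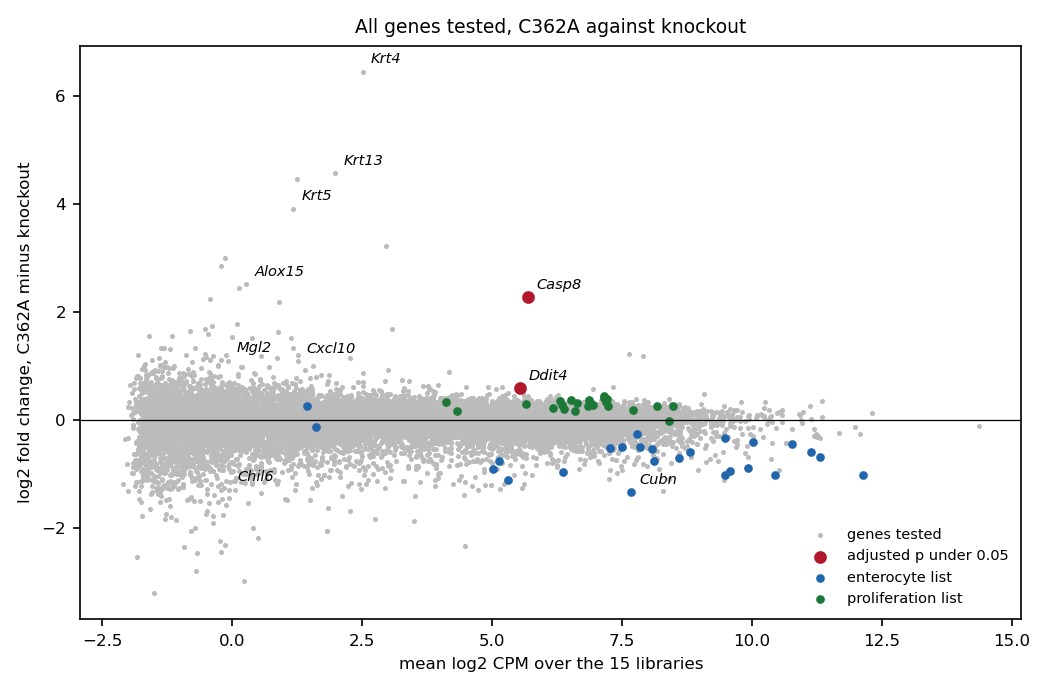
Log2 fold change of C362A against knockout for 18370 genes by mean log2 CPM over the 15 libraries, with the 2 called genes in red and the enterocyte and proliferation lists in blue and green. Casp8 lies at 2.28 and Ddit4 at 0.59, lower than some genes that were not called, such as Cxcl10 (1.10) and Mab21l3 (0.89). Of the enterocyte genes 24 of the 25 lie below 0, and of the proliferation genes 21 of the 22 lie above it.

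The second called gene, Ddit4 (chr10:59949675-59951770), encodes REDD1, an inhibitor of the growth kinase mTORC1 that is induced by several stresses. Its level in C362A replicates 1 to 5 was 56.5, 50.3, 53.7, 48.9 and 61.1 CPM. In knockout replicates 1 to 5 it was 35.8, 35.7, 34.2, 37.2 and 37.2 CPM. The groups did not overlap, and the knockout libraries spanned only 3 CPM. Ddit4 was higher in C362A than in knockout, with means of 54.1 ± 4.92 and 36.0 ± 1.26 CPM. The log2 fold change was 0.59 (SE 0.07, interval 0.43 to 0.74, edgeR adjusted p = 0.00374). The wildtype level was 49.9 ± 4.39 CPM. Against wildtype the difference was 0.12 for C362A (adjusted p = 0.41) and -0.47 for knockout (adjusted p = 0.028), in comparisons that share these libraries. The log2 fold change was 0.61 within run 1, where it did not pass (adjusted p = 0.694, 2 libraries per genotype), and 0.57 within run 2 (adjusted p = 0.0254). Ddit4 was called with each of the 15 libraries left out in turn, with adjusted p from 0.0023 to 0.0266.

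No other stress gene was called. Of the 20 stress and integrated stress response genes tested, Ddit4 was the only one called, and the list's median was -0.07. The list's mean log2 CPM was 4.389 in C362A replicate 5. It was 3.791 to 3.928 in the other C362A libraries and 3.885 to 4.053 in knockout. The transcription factor genes Atf4 and Ddit3 were at 219 and 20.9 CPM in C362A against 257 and 25.2 CPM in knockout, and Trib3, a target of both, was at 5.01 against 2.82 CPM. None of these 3 passed over all libraries, and without C362A replicate 5 Atf4 (-0.36, adjusted p = 0.0405) and Ddit3 (-0.66, adjusted p = 0.0209) were called lower. Of 15 genes for hypoxia and glycolysis, 13 had positive fold changes, none was called by edgeR, 2 had an unadjusted p under 0.05, and the median was 0.12. Without C362A replicate 5 the median was 0.04, 10 were positive and 3 were lower with an unadjusted p under 0.05. Over all genes, 2743 of 18510 were lower at that level in that fit. The median was 0.07 without knockout replicate 3 and 0.23 without knockout replicate 4. Hk2 (chr6:82725025-82774454), which encodes hexokinase 2, was at 43.5, 41.2, 41, 43.3 and 55.4 CPM in C362A and at 32.3, 33, 31, 32.3 and 34.1 CPM in knockout. Its groups did not overlap, and C362A replicate 5 was the highest (log2 fold change 0.46, adjusted p = 0.317). Ankrd37, a hypoxia-induced gene, was at 11.8 ± 3.75 against 7.13 ± 1.48 CPM, again highest in C362A replicate 5.

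Genes of NF-kB signalling and cytokines were examined as readouts of inflammation. NF-kB is a transcription factor that induces its own inhibitor gene Nfkbia together with adhesion molecules and chemokines. Of 21 tested genes, 16 had positive fold changes, none was called by edgeR, and 7 were higher and 1 lower with an unadjusted p under 0.05, with a median of 0.12. Cxcl10 (chr5:92346638-92348889), a chemokine gene induced by interferons and NF-kB, came closest to the threshold. It was at 5.42, 4.0, 4.45, 4.23 and 3.36 CPM in C362A replicates 1 to 5 and at 1.63, 2.01, 2.94, 1.62 and 1.80 CPM in knockout. All C362A libraries lay above all knockout libraries, the nearest being 3.36 and 2.94 CPM. The log2 fold change was 1.10 (SE 0.19, adjusted p = 0.11 with edgeR), and it passed with DESeq2 (adjusted p = 0.000144) and limma-voom (adjusted p = 0.0335). It also passed in edgeR without C362A replicate 5 (1.17, adjusted p = 0.0252) and without knockout replicate 3 (1.28, adjusted p = 0.0155).

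Cxcl10 was ordered over the 3 genotypes. The wildtype level was 0.734 ± 0.125 CPM, and both C362A (2.54, adjusted p = 7.96e-06) and knockout (1.45, adjusted p = 0.0143) were called higher than wildtype, where 0.0817% and 0.0381% of genes were called. Nfkbia (chr12:55489409-55492647) was at 42.7, 37.5, 46.5, 37.5 and 42.2 CPM in C362A and at 34.2, 30.3, 31.9, 34.5 and 28.0 CPM in knockout. Its groups did not overlap, and the wildtype mean of 31.0 ± 3.70 CPM lay close to the knockout mean of 31.8 ± 2.72 CPM. The log2 fold change was 0.38 (SE 0.09, adjusted p = 0.317), and without C362A replicate 5 the gene was called (0.37, adjusted p = 0.0466). The adhesion molecule genes Vcam1 (0.48) and Icam1 (0.26), the chemokine gene Ccl2 (0.65) and the NF-kB subunit gene Nfkb2 (0.18) had unadjusted p under 0.05 in the same direction. Lif, a cytokine gene, had the opposite sign (4.91 against 7.53 CPM, log2 fold change -0.62). Lif was called lower without C362A replicate 5 (-0.91, adjusted p = 0.0383) and Vcam1 higher (0.57, adjusted p = 0.0446). Of the 7 higher at an unadjusted p under 0.05, 4 were left without C362A replicate 3, and the list median was 0.06 without C362A replicate 2. Tnf, Il6, Cxcl1, Cxcl2 and Cxcl5 had too few counts to be tested, and Il1b was at 1.47 against 1.15 CPM.

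Interferon-stimulated genes, which carry out antiviral defence, were mixed in sign between the 2 genotypes without a covariate. Of 31 tested, none was called by edgeR, 1 was higher with an unadjusted p under 0.05, 19 had positive and 12 negative fold changes, and the median was 0.03. The member with the smallest p was Ifit2, at 14.1 ± 1.59 against 11.1 ± 0.811 CPM. Without C362A replicate 5 the median was -0.19 and 24 of 31 were negative, and that library was the highest for Stat2, at 62.7 CPM beside 28.5 to 37.9 CPM in the other C362A libraries. The median against wildtype was 0.27 for C362A and 0.22 for knockout. A covariate was made of each library's mean log2 CPM over enterocyte genes, whose values did not overlap between C362A and knockout. It moved the interferon median to 0.59, with 30 of 31 positive, 18 of them with an unadjusted p under 0.05 and 0 called by edgeR. Over all genes, 538 of 18370 were higher and 424 lower at that level in this fit. The covariate comes from these data and separates the 2 genotypes, so its part and that of genotype cannot be told apart. Of 13 guanylate-binding and immunity-related GTPase genes, 11 were positive with a median of 0.15 and none was called by edgeR. Irgm1 was the only one of them with an unadjusted p under 0.05, at 27.3 ± 0.929 against 23 ± 2.44 CPM. Of 15 genes for MHC class I antigen presentation and 9 for class II, none was called or had an unadjusted p under 0.05, with medians of 0.02 and 0.10. With the same covariate all 15 and all 9 were positive, 8 and 5 of them had an unadjusted p under 0.05, and the medians were 0.31 and 0.57.

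**Figure D3:**
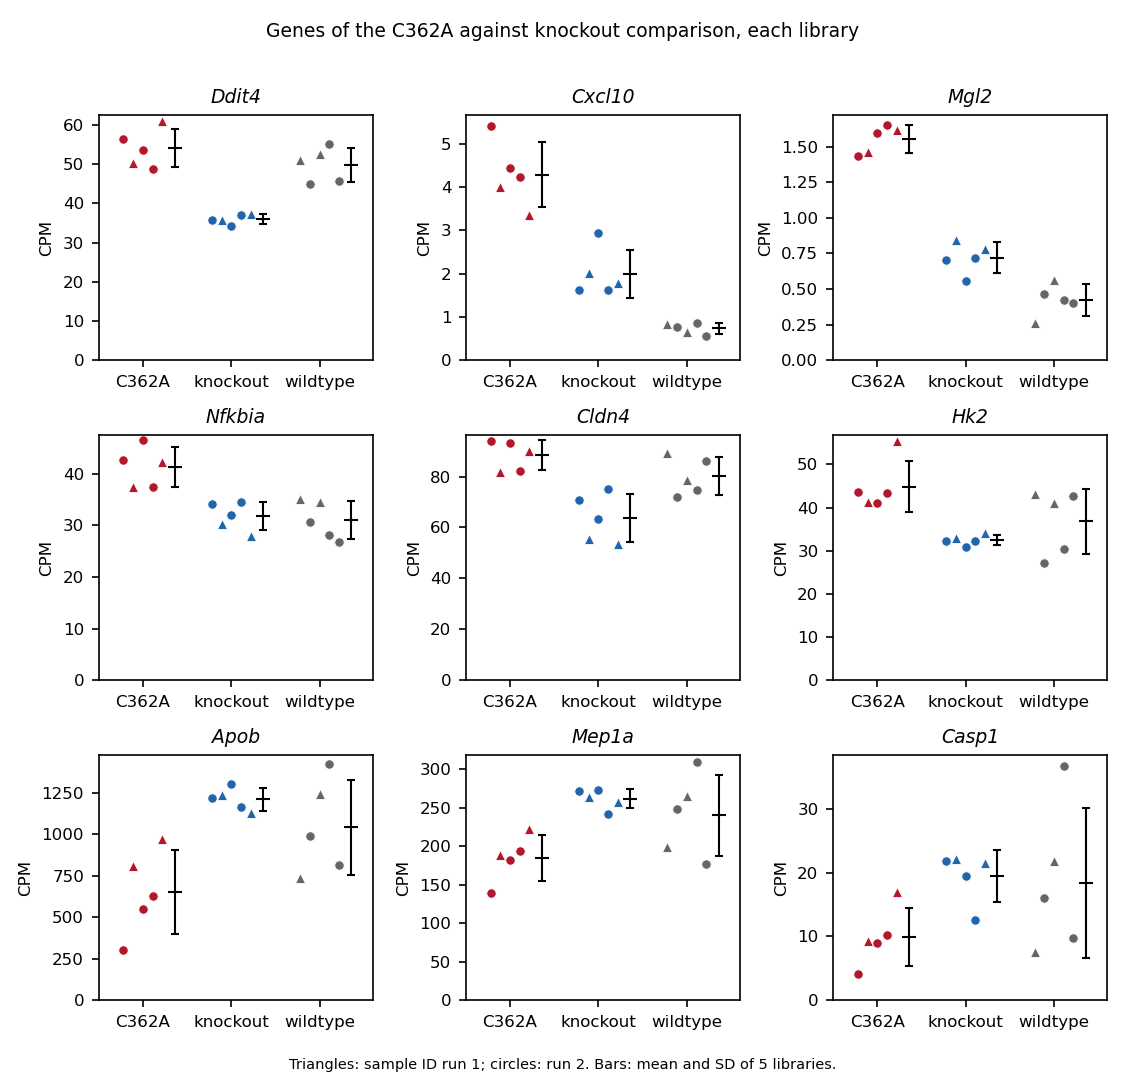
CPM of 9 genes in each library, by genotype, with mean and SD as bars and the sample ID run as the symbol. The C362A and knockout libraries do not overlap for Ddit4, Cxcl10, Mgl2, Nfkbia, Cldn4, Hk2, Apob and Mep1a, and they overlap for Casp1, where C362A replicate 5 reaches 16.9 CPM.

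Markers of immune cells were compared because the C362A tissue is labelled inflamed. Macrophage genes were mixed: of 28 tested, none was called by edgeR, 5 were higher and 3 lower with an unadjusted p under 0.05, and the median was 0.12. Mgl2, a lectin gene of some macrophages and dendritic cells, was at 1.43, 1.46, 1.59, 1.65 and 1.62 CPM in C362A and at 0.702, 0.843, 0.557, 0.717 and 0.781 CPM in knockout. These groups were far apart (log2 fold change 1.10, SE 0.20, adjusted p = 0.186), and the wildtype level was 0.423 ± 0.111 CPM. Spic, which encodes a transcription factor of iron-recycling macrophages, was at 1.21 ± 0.254 against 0.689 ± 0.169 CPM, also without overlap. The lineage genes Csf1r, Cd68, Adgre1 and C1qa had log2 fold changes of -0.39, 0.06, 0.21 and 0.07 and did not pass. The transcription factor gene Maf and the receptor gene Mertk were lower with an unadjusted p under 0.05, with log2 fold changes of -0.51 and -0.46. Mgl2 was called higher without C362A replicate 5 (1.09, adjusted p = 0.0383) and Mertk lower (-0.63, adjusted p = 0.0406). In that fit 8 of the list were higher with an unadjusted p under 0.05, beside 2363 of 18510 over all genes. The summed level of the macrophage list overlapped between groups, at 473 to 605 CPM in C362A and 527 to 669 CPM in knockout.

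Slamf8, a myeloid receptor gene, and Mmp9, which encodes a secreted protease, were called higher than wildtype in both genotypes and were not called between them. Slamf8 was at 2.05, 1.37 and 0.451 CPM in C362A, knockout and wildtype, with fold changes against wildtype of 2.18 and 1.61, both called. Mmp9 was at 37.0, 31.6 and 15.8 CPM, with fold changes against wildtype of 1.23 (adjusted p = 0.00201) and 1.0 (adjusted p = 0.0276). Between C362A and knockout the log2 fold changes were 0.58 for Slamf8 (adjusted p = 0.317) and 0.23 for Mmp9 (adjusted p = 0.495).

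Granulocyte markers varied widely between libraries of 1 genotype. Of 15 neutrophil genes, none was called by edgeR, 2 were higher and 1 lower with an unadjusted p under 0.05, and the median was 0.23 (-0.99 within run 1). S100a8, an abundant neutrophil gene, was at 3.64, 3.65, 13.2, 16.8 and 1.68 CPM in C362A and at 3.74, 6.36, 11.1, 1.68 and 4.29 CPM in knockout, so the ranges overlapped widely. All 9 tested mast cell and basophil genes had positive fold changes, with a median of 0.77. Of the 9, 3 had an unadjusted p under 0.05, beside 6.49% of all genes higher at that level. The levels of the mast cell and basophil genes came mainly from C362A replicates 3 and 4. Cpa3, the mast cell carboxypeptidase gene, was at 15.4 and 14.2 CPM there, 3.55 to 4.25 CPM in the other C362A libraries and 1.78 to 6.97 CPM in knockout. The protease genes Mcpt4 (1.78, adjusted p = 0.0383) and Mcpt8 (1.82, adjusted p = 0.0405) were called higher without C362A replicate 5, and leaving out C362A replicate 1, 2 or 5 gave 5 with an unadjusted p under 0.05. Within run 1, which lacks replicates 3 and 4, the median of the list was -0.32. Of 14 lymphoid genes, Ltb, a cytokine gene of lymphoid tissue inducer cells, was at 2.96 ± 0.398 against 1.71 ± 0.521 CPM without overlap, and was called higher without C362A replicate 5 (0.85, adjusted p = 0.0419). Cd3e, Cd3d, Cd79a and Ly6g had too few counts to be tested.

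Genes of inflammasomes and pyroptosis, the death pathway run by caspase-1 and gasdermin D, had lower values in C362A. Of 22 tested, 19 had negative fold changes and 6 were lower with an unadjusted p under 0.05, beside 7.41% of all genes. None was called by edgeR, and the median was -0.23. Casp1 was at 4.08, 9.33, 8.90, 10.2 and 16.9 CPM in C362A and at 21.9, 22.1, 19.4, 12.5 and 21.4 CPM in knockout. The ranges overlapped through C362A replicate 5 and knockout replicate 4, with a log2 fold change of -0.98 (SE 0.42, adjusted p = 0.334). Naip1, which encodes a sensor of bacterial secretion needles, was at 37.5, 62.5, 64.4, 64 and 85.8 CPM against 95.5, 93.3, 104, 87.8 and 90.3 CPM and was the only member whose groups did not overlap (-0.58, adjusted p = 0.317). The C362A libraries lay wholly below the knockout libraries for 1.74% of all genes. The adaptor gene Pycard, which encodes ASC, was at 250 and 255 CPM, and Nlrp3 was at 1.10 and 1.11 CPM. The count of 6 was 3 without C362A replicate 1, C362A replicate 3 or knockout replicate 2, and the median was -0.14 without C362A replicate 2 and -0.35 without knockout replicate 4. It was 0.11 with the enterocyte covariate. Without C362A replicate 5 it was -0.30, 10 were lower with an unadjusted p under 0.05, and Naip5 (-0.95) and Gsdmd (-0.65) were called lower. In that fit 2743 of 18510 genes were lower at the unadjusted level, and 476 (2.57%) were called lower. The Naip genes are close copies, and counts of unique alignments may divide their reads unevenly.

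Genes of enterocytes, the absorptive cells of the villus, had lower values in C362A. Of 25 tested genes, 24 had negative fold changes and 22 were lower with an unadjusted p under 0.05, beside 7.41% of all genes, and the median was -0.68. For 13 of the 25 all C362A libraries lay below all knockout libraries, beside 1.74% of all genes. None was called by edgeR over all libraries, with 1 (Apob) called by DESeq2. Without C362A replicate 5 the median was -0.86 and 6 were called lower: Fabp1, Apob, Dgat1, Mep1a, Cubn and Lrp2. Over all genes, 476 of 18510 (2.57%) were called lower in that fit. In bulk tissue, fewer cells of a type and less RNA per cell cannot be told apart.

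Apob (chr12:7977629-8016839), which encodes the core protein of chylomicrons, was at 302, 805, 546, 624 and 971 CPM in C362A and at 1214, 1234, 1303, 1165 and 1125 CPM in knockout. The highest C362A library, replicate 5, stayed below the lowest knockout library, and the C362A libraries spread more than 3 times more widely on this scale (SD 255 against 67.7 CPM). The log2 fold change was -0.89 (SE 0.25, adjusted p = 0.317). Mep1a (chr17:43474324-43504143), which encodes a brush-border metalloprotease, was at 139, 188, 182, 193 and 222 CPM against 271, 264, 273, 242 and 257 CPM, again without overlap (-0.50, SE 0.13, adjusted p = 0.317). Lct, the lactase gene, was at 441 against 888 CPM, and Apoa4, a lipoprotein gene, at 2627 against 5342 CPM. Cubn and Lrp2, which encode the scavenging receptors cubilin and megalin, had the lowest fold changes of the list, at -1.33 and -1.10. The structural brush-border gene Vil1 differed less (616 against 770 CPM, -0.32). Sis, the sucrase-isomaltase gene that rises after birth, was at 2.88 and 2.39 CPM.

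The wildtype libraries spread widely for these genes. The mean log2 CPM of the enterocyte list was 6.99, 7.57, 7.48, 7.48 and 8.0 in C362A replicates 1 to 5 and 8.21, 8.36, 8.30, 8.03 and 8.27 in knockout. It ran from 7.47 to 8.77 in wildtype, a range that takes in all but 1 of the other 10 libraries. The summed level was 8947 to 19574 CPM in C362A, 20361 to 24512 CPM in knockout and 12430 to 37033 CPM in wildtype. Against wildtype the median was -0.58 for C362A and 0.06 for knockout, and no enterocyte gene was called by edgeR in either comparison.

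Other epithelial lists did not share the low median of enterocytes, though single members were lower in C362A. Of 17 enteroendocrine genes, 13 were positive and 7 were higher with an unadjusted p under 0.05, beside 6.49% of all genes, with a median of 0.31. Against wildtype the enteroendocrine median was 0.04 for C362A and -0.31 for knockout. The count of 7 was 3 without C362A replicate 1 and 4 without C362A replicate 4 or knockout replicate 1. Over all genes the count higher also fell, from 1193 to 801, 835 and 884 in these fits. The glucagon gene Gcg was at 39.96 ± 9.11 against 26.9 ± 5.89 CPM and the granule protein gene Chgb at 148 ± 45.0 against 99.3 ± 11.1 CPM. Of 14 goblet cell genes, 11 were positive with a median of 0.21, among them the mucus gene Clca1 at 187 against 123 CPM, while the mucin gene Muc2 was at 24.3 against 30.9 CPM. Of 15 stem cell and Wnt genes the median was 0.07, and the stem cell markers Lgr5 and Ascl2 were at 11.0 and 5.84 CPM in C362A and 10.8 and 5.86 CPM in knockout. Cd44, a surface receptor gene of crypt cells, had no overlap (38.5 ± 4.51 against 31 ± 2.0 CPM, 0.31). None of these 46 genes was called by edgeR over all libraries, and Gcg, Chgb, Insm1 and Cd44 were called higher without C362A replicate 5. In that fit 1.78% of all genes were called higher.

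Tight junction genes were mixed, with a median of 0.00 over 15. Cldn4 (chr5:134945123-134946934), which encodes a sealing claudin, was at 94.0, 82.0, 93.3, 82.1 and 90.0 CPM in C362A and at 70.9, 55.4, 63.2, 75.1 and 53.4 CPM in knockout. The groups did not overlap (log2 fold change 0.47, SE 0.09, adjusted p = 0.279), and the wildtype mean of 80.2 ± 7.37 CPM lay nearer to C362A. Cldn2, which encodes a pore-forming claudin, was at 241 ± 41.3 against 324 ± 14.8 CPM. Cldn4 was called higher without C362A replicate 5 (0.47, adjusted p = 0.0383) and Cldn2 lower (-0.54, adjusted p = 0.0472). Of 13 genes of fetal or regenerating epithelium, Ccn1, a target of the YAP pathway, was at 30.7 ± 1.94 CPM in C362A and 37.1 ± 3.62 CPM in knockout, beside a wildtype mean of 26 ± 2.41 CPM. It did not overlap between C362A and knockout (-0.27, adjusted p = 0.317) and was called higher in knockout than in wildtype (0.51, adjusted p = 0.0308). Of 8 antimicrobial genes tested, none had an unadjusted p under 0.05 over all libraries. With the enterocyte covariate 3 were higher at that level, beside 538 of 18370 over all genes, and 1 of them was called.

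Genes of DNA replication and mitosis had higher values in C362A. Of 22 tested, 21 were positive and 14 were higher with an unadjusted p under 0.05, with a median of 0.29, none was called by edgeR, and the groups overlapped for all 22. The count of 14 fell to 2 without C362A replicate 1, 4 without C362A replicate 3, 6 without C362A replicate 4 or knockout replicate 5, 5 without knockout replicate 2 and 7 without knockout replicate 1. Over all genes 1193 were higher at that level, and 801, 759, 835, 1268, 791 and 884 in these fits, in the order given. With the enterocyte covariate the proliferation median was -0.09 and 21 genes were negative. Mcm4, which encodes a subunit of the replicative helicase, was at 206, 158, 206, 197 and 97.1 CPM in C362A and at 126, 120, 134, 136 and 121 CPM in knockout. Replicates 1 to 4 of C362A lay above all knockout libraries and replicate 5 below all of them. Without that library the median was 0.37 and 7 genes were called higher: Bub1b, Plk1, Mcm2, Mcm3, Mcm4, Mcm5 and Rrm2, with fold changes of 0.47 to 0.59. Over all genes, 329 of 18510 (1.78%) were called higher in that fit. The mean log2 CPM of the list was 7.2, 6.83, 7.05, 6.98 and 6.45 in C362A replicates 1 to 5 and 6.53 to 6.76 in knockout. Mki67, a general marker of cycling cells, was at 347 and 349 CPM, with a fold change of -0.01. Trp53, which encodes p53, was at 158 ± 28.1 against 122 ± 9.85 CPM and was called higher without C362A replicate 5 (0.46, adjusted p = 0.0383), and the 15 genes of a p53 target list had a median of -0.00.

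**Figure D4:**
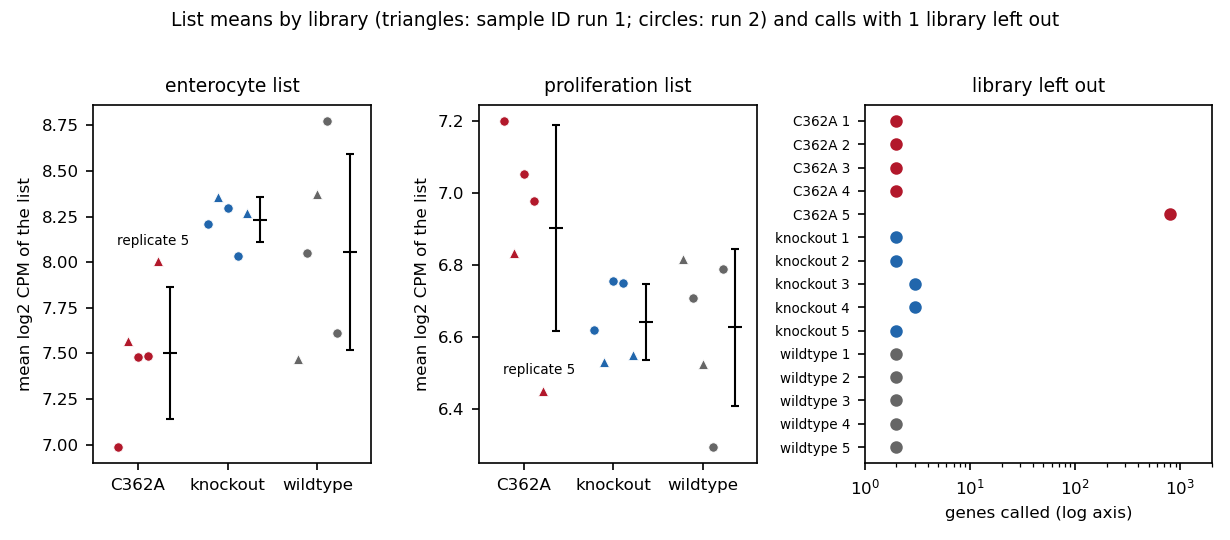
Mean log2 CPM of the enterocyte list (left) and the proliferation list (middle) in each library, with mean and SD by genotype, and the number of genes called in C362A against knockout with each library left out (right, log axis). C362A replicate 5 lies nearest to the knockout libraries for enterocyte genes (8.0) and below them for proliferation genes (6.45), and leaving it out gave 805 calls while leaving out any other library gave 2 or 3.

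No gene of the gut wall lists was called by edgeR over all libraries. Cald1 (0.34, adjusted p = 0.0466), Foxf1 (0.31, adjusted p = 0.0466) and Tubb3 (0.38, adjusted p = 0.0478) were called higher without C362A replicate 5. In that fit 1.78% of all genes were called higher. Medians were 0.08 over 14 smooth muscle genes, 0.18 over 20 fibroblast and matrix genes, 0.08 over 17 endothelial genes, 0.10 over 16 genes of the enteric nervous system and -0.07 over 7 mesothelial genes. The matrix gene Col3a1 was at 3073 against 2388 CPM and the mesenchymal transcription factor gene Foxf1 at 130 ± 10.2 against 108 ± 11.7 CPM, both with an unadjusted p under 0.05. Madcam1, which encodes the vascular address for gut-homing lymphocytes, was at 23.1 ± 3.03 against 17.2 ± 0.789 CPM without overlap (0.43, adjusted p = 0.317) and was called higher in C362A than in wildtype (0.64, adjusted p = 0.0431). The glial gene S100b had no overlap in the other direction, at 2.13 ± 0.345 against 3.13 ± 0.313 CPM.

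Transcripts of genes listed for neighbouring organs and for blood differed between libraries and are given for that reason. Which cells these transcripts came from was not tested. All 12 tested pancreas and liver genes had negative fold changes, with a median of -1.01 and 6 with an unadjusted p under 0.05, or 3 without any 1 of C362A replicates 1 and 2 and knockout replicates 4 and 5. Over all genes and libraries, 7.41% were lower at that level. Against wildtype the median of the list was -0.11 for C362A and 0.95 for knockout. Afp, the alpha-fetoprotein gene, was at 169, 245, 218, 259 and 251 CPM in C362A and at 431, 455, 673, 280 and 590 CPM in knockout, without overlap. The summed level of the list was 381 to 586 CPM in C362A and 439 to 1520 CPM in knockout. The stomach and squamous keratin genes Krt4 and Krt5 were at 79.3 and 27.3 CPM in C362A replicate 4 and under 1 CPM in the other 9 libraries compared, and their fold changes rest on that library. Erythroid genes had a median of -0.42 with 10 of 11 negative, none with an unadjusted p under 0.05. The part of these transcripts in the other differences was not tested beyond the erythroid covariate, with which 3 genes were called.

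**Figure D5:**
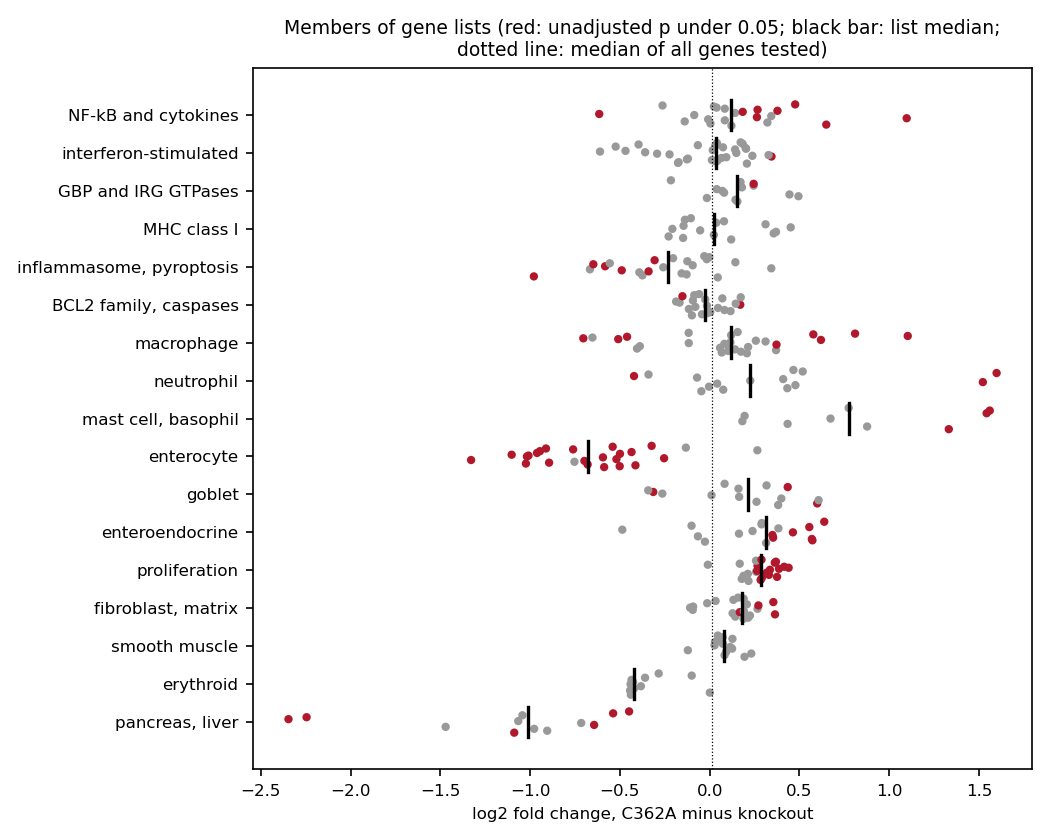
Log2 fold change of C362A against knockout for the tested members of 17 gene lists, with members at an unadjusted p below 0.05 in red, a black bar at each list's median and a dotted line at the median of all genes (0.01). The enterocyte (-0.68), inflammasome (-0.23) and pancreas and liver (-1.01) lists lie left of it and the proliferation (0.29), enteroendocrine (0.31) and mast cell (0.77) lists right of it.

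Further genes among those with the smallest p did not pass with edgeR over all libraries, and most of them passed with DESeq2. On the higher side were Lipg, an endothelial lipase gene (16.2 ± 1.61 against 12.1 ± 0.568 CPM), Mab21l3 (24.1 ± 2.98 against 13.0 ± 3.53 CPM), the heparanase gene Hpse (7.94 ± 0.598 against 5.57 ± 0.465 CPM) and the nucleoside transporter gene Slc29a1 (58.5 ± 9.06 against 44.2 ± 2.13 CPM). None of these 4 overlapped between the groups, and each had an edgeR adjusted p of 0.317. With DESeq2 all 4 were called, with adjusted p of 0.00808 for Lipg, 0.00463 for Mab21l3, 0.00842 for Hpse and 0.0339 for Slc29a1. Alox15, a lipoxygenase gene, had the largest fold change among the named higher genes outside the keratins (2.52) and overlapped, being at 3.11, 2.22 and 5.56 CPM in C362A replicates 1, 3 and 4 and at 0.649 and 0.569 CPM in replicates 2 and 5. DESeq2 called it as well (adjusted p = 0.00157).

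On the lower side Trmt44, a tRNA methyltransferase gene, had the smallest p. It was at 12.9, 14.0, 12.7, 11.9 and 14.8 CPM in C362A and at 17.3, 17.4, 16.9, 17.3 and 17.9 CPM in knockout, a narrow difference without overlap (-0.39, SE 0.07, edgeR adjusted p = 0.255), and DESeq2 called it (adjusted p = 0.00109). Spsb4 (-0.38), the arachidonic acid epoxygenase family gene Cyp2j13 (-1.15), AA986860 (-0.44), the chitinase-like gene Chil6 (-1.29), the sulfotransferase gene Sult6b2 (-0.71), the transcription factor gene Gata5 (-0.40) and Fam118b (-0.45) also had no overlap, at an edgeR adjusted p of 0.317. Of these 7, DESeq2 called Cyp2j13 (adjusted p = 0.0165), Spsb4 and Sult6b2 (both 0.0339), and AA986860 and Chil6 (both 0.0426). Gata5 encodes a factor of gut epithelium and heart and was at 28.4 ± 2.43 against 37.5 ± 2.26 CPM.

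More genes were called within run 2 than within run 1. Within run 2, 30 genes were called higher (0.163%) and 90 lower (0.49%), together 0.653%, beside 1 gene, Casp8, within run 1, which had 2 libraries per genotype. Apob had a log2 fold change of -0.41 within run 1 and -1.32 within run 2, and the enterocyte median was -0.45 and -0.86. The medians of the macrophage (-0.08), fibroblast and matrix (-0.03), guanylate-binding (-0.05) and erythroid (0.03) lists had the opposite sign within run 1. C362A replicate 5 was 1 of the 2 C362A libraries of run 1. Leaving out that library alone, with both runs in the fit, gave an enterocyte median of -0.86. The part of the run and that of this library cannot be told apart. The test of the difference between runs called 2 genes, neither of them named here, and 1420 genes had an unadjusted p under 0.05 in it.

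The unadjusted 95% intervals show the range of differences left for each gene. They do not show what size would have been called, since calls were adjusted over all genes. Cxcl10 and Mgl2, both with a log2 fold change of 1.10, were not called by edgeR over all libraries. The median SE over all genes was 0.121 on the log2 scale. The 95% interval lay wholly within 1 log2 unit either side of 0 for 86.6% of genes, for 97.2% of those at 8 to 64 CPM and for 40.8% of those under 1 CPM. Genes next to Casp8 were also examined. Of 24 tested within 1 Mb, none was called by edgeR and the median was 0.00. Flacc1 (-0.75) and Gm20257 (-0.85) were the 2 with an unadjusted p under 0.05.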

How the data were processed

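PolyA RNA from E16.5 small intestine was sequenced as single-end reads of 50 bp from unstranded libraries made from 0.5 ug RNA, per the labels' protocols. Alignment used GSNAP and GRCm38, per the submitters' processing notes; versions and settings were not given in the sources used here. Per the file headers, the authors' counts are reads of unique alignment in each gene model. Their deposited RPKM values carry a size factor per library, per the file headers; over 15038 genes they matched the counts to within 9.6e-15 (log2) apart from 1 factor per library and 1 per gene. They were used in 1 alternative, as log2(RPKM + 1).

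Of 36528 Entrez IDs, 31049 were named from RefSeq (GRCm38.p6) and 78 from GENCODE. The remaining 5401 stayed unnamed and were tested. All 15 libraries entered 1 edgeR fit (edgeR 4.0.16, R 4.3.3, TMM, filterByExpr with a minimum count of 10 and total of 15, robust; biological coefficient of variation 0.174). SE is the absolute log2 fold change divided by the square root of F. The tests were checked on simulated counts. Pairs of C362A or of knockout libraries gave 10.69 to 104 as chi-square per gene, above sampling noise. Each library was counted as 1 sample, and these values cannot show whether it was 1 animal. Replicates were numbered in accession order and pair nothing.

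The comparison, the 32 gene lists (547 entries, 2 not found) and the rule for named genes were chosen with earlier results of these data known. The rule took Casp8, Mlkl, Cflar, Fadd, Ripk1 and Ripk3, the called genes, the 10 smallest p in each direction where fewer than 10 genes were called, and the 2 smallest p of each list. Other members were named after their values were seen. Alternatives were 3 scalings, DESeq2 1.42.0, limma 3.58.1, robust estimates off, 2 filters, the 10 libraries alone, sample ID runs, 3 covariates, each library left out and 2 thresholds.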

Additional observations from a re-analysis of the deposited data

Results flagged for a closer look

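In 18 of the 164 groups of 5 libraries examined over the named genes, 1 library stood apart from the other 4 by more than Dixon's 95% limit. Chance alone gives about 1 in 20 groups, and the groups share libraries.

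C362A replicate 5 was the outlying library in 8 of them, each time as the highest of its group. Mlkl was at 0.839 CPM there, beside 0.187 to 0.361 CPM in the other C362A libraries. Gm826 was at 15.1 CPM beside 9.06 to 10.2 CPM, and Chil6 at 0.959 CPM beside 0.28 to 0.463 CPM. The interferon signalling gene Stat2 was at 62.7 CPM beside 28.5 to 37.9 CPM. Padi4 was at 8.51 CPM beside 4.89 to 5.79 CPM, and the claudin gene Cldn2 at 311 CPM beside 203 to 233 CPM. The hypoxia and glycolysis genes Hk2 and Ankrd37 were at 55.4 CPM beside 41.0 to 43.5 CPM and at 18.4 CPM beside 9.12 to 11.2 CPM.

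Other C362A libraries stood out for 5 genes. Krt4 was at 79.3 CPM and Krt5 at 27.3 CPM in replicate 4, beside at most 0.811 and 0.676 CPM in the other 4. Gbp5 was at 3.0 CPM in replicate 3, beside 1.18 to 1.65 CPM. In replicate 1, Sult6b2 was at 24.8 CPM beside 37.4 to 42.5 CPM and Bmf at 50.8 CPM beside 55.9 to 57.6 CPM.

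Single knockout libraries stood out for 5 genes. In replicate 3, Gbp5 was at 1.99 CPM beside 0.966 to 1.15 CPM and Tnfsf10 at 9.94 CPM beside 7.45 to 7.78 CPM. In replicate 4, Cyp2j13 was at 2.81 CPM beside 4.16 to 4.5 CPM. In replicate 5, Muc13 was at 1181 CPM beside 1288 to 1325 CPM, and in replicate 1 Nos2 was at 1.80 CPM beside 2.80 to 3.21 CPM.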

How the results depend on the processing

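Casp8 was called under every alternative run, at log2 fold changes from 2.06 to 2.40. Beside the 2 genes called, 31 were called by DESeq2, 5 by limma on log2(RPKM + 1), 4 with the 10 libraries alone, 1 within run 1, 120 within run 2 and 1 with an absolute log2 fold change of at least 1. Leaving out each library in turn gave 2 to 805 calls, the highest without C362A replicate 5. The fits that were left gave 2 or 3. Scaling by library totals turned the split at an unadjusted p under 0.05 to 1789 higher and 1069 lower, from 1193 and 1362, and moved the median of all genes to 0.05. Ddit4 did not pass within run 1. With a covariate for the enterocyte list mean, signs changed for Mlkl (0.34), Cflar (0.0454), Ripk1 (0.0313), Tnfsf10 (0.0791), Stat2 (0.22), Muc13 (0.0257), Cldn2 (0.0430), Bub1b (-0.0061), Perp (0.0630), Cald1 (-0.0050), Lum (-0.0947) and Upk1b (-0.0039). They also changed within run 1 for Ripk3 (-0.0281), Retnlg (-0.90), Mcpt4 (-0.15), Cald1 (-0.0512), Hba-a1 (0.22), Alas2 (0.0261) and Krt5 (-0.23). Ripk1 changed sign within run 2 (0.0024) and with library totals (0.0046). Ripk3 changed sign with voom (-0.010), RPKM (-0.0081), a filter of 5 CPM (-0.00012) and the Y-linked covariate (-0.0021). With libraries left out, Ripk3 ranged from -0.0416 to 0.0737 and Fadd from -0.0143 to 0.0575. The cause of these changes was not tested. No paired analysis was possible because the labels give no replicate numbers. Genes under 1 CPM are limited by depth.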
